A study of Mus musculus with 8 samples.

Results

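Transforming growth factor beta (TGF-β) signaling was followed in cultured Lewis lung carcinoma (LLC) cells through 9 genes taken by symbol from the 55487 genes in the count table. These were the ligands Tgfb1, Tgfb2 and Tgfb3, the receptors Tgfbr1, Tgfbr2 and Tgfbr3, the signal transducer Smad3, the feedback inhibitor Smad7 and the matrix gene Tgfbi. LLC is a mouse lung carcinoma line. The 4 wild-type libraries and the 4 libraries labelled Ago2 knock-out (ΔAgo2) were poly(A) RNA sequencing of cells grown alone in serum-containing medium, with no other treatment in the labels. Per the study's methods, the ΔAgo2 line was made with a lentiviral CRISPR-Cas9 vector, selected with puromycin and grown from single sorted cells, so that clonal differences and the loss of Ago2 cannot be told apart in this comparison. Where the labels call the 4 libraries of a genotype biological replicates, no source used here says that they came from separate clones, and p-values therefore measure the spread between these libraries.

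Ago2 is the Argonaute protein that, guided by microRNAs (miRNAs), binds messenger RNAs in their 3′ untranslated regions (UTRs) and lowers their translation and stability. TGF-β ligands are secreted in a latent form, held in the matrix by latent TGF-β binding proteins (LTBPs), and act after release. An active ligand binds the type II receptor Tgfbr2, which phosphorylates the type I receptor Tgfbr1. Tgfbr1 in turn phosphorylates Smad2 and Smad3, which enter the nucleus with Smad4. Tgfbr3, also called betaglycan, is a co-receptor without kinase activity that presents ligand to Tgfbr2. In carcinoma cells the pathway is known both for growth arrest and for a change towards a mesenchymal state. The genotype comparison asks which of these genes differ in RNA level when Ago2 is lost.

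Because Ago2 acts through base pairing with the miRNA seed (bases 2 to 8), the seeds of miRNA families often studied with this pathway are shown with the matches found in the members. The mature sequences come from RefSeq (GRCm38.p6), 5′ to 3′, with the seed in capitals. No entry was used for miR-145.

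let-7a-5p: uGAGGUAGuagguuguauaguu

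miR-21a-5p: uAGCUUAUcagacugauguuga

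miR-17-5p: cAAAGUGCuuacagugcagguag

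miR-200b-3p: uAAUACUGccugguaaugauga

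miR-141-3p: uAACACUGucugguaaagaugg

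The letters searched on the transcript strand were CTACCTC for let-7, ATAAGCT for miR-21, GCACTTT for miR-17, CAGTATT for miR-200b and CAGTGTT for miR-141. The search covered the longest annotated 3′ UTR of each gene (GENCODE M21, GRCm38). In 6 of the 9 members it found 15 matches. The 3 receptor genes and Smad7 held 3 matches each, Tgfb2 held 2 and Tgfbi held 1, while Tgfb1, Tgfb3 and Smad3 held 0. The 4 sites below are the let-7 matches of Tgfbr1 and Tgfbr3 and the 2 matches of Tgfbr2 nearest its stop codon, with the match in capitals between 10 upstream and 5 downstream bases.

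Tgfbr1 let-7 site, chr4:47410843-47410849 (+): gctggttgttCTACCTCactga

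Tgfbr3 let-7 site, chr5:107106961-107106967 (-): tgtactgtaaCTACCTCatggt

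Tgfbr2 miR-21 site, chr9:116090136-116090142 (-): ctgtcatggcATAAGCTgtgct

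Tgfbr2 miR-17 site, chr9:116090074-116090080 (-): aataacgtttGCACTTTattaa

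Both let-7 matches were followed by an A, the base opposite miRNA base 1 in a full seed site. Such matches are common. Of 21021 annotated 3′ UTRs, 9.02% held the let-7 match, 7.19% the miR-21 match, 11.8% the miR-17 match, 13.3% the miR-200b match and 17.2% the miR-141 match. The receptor UTRs were also long, with 4154 bases in Tgfbr1, 6085 in Tgfbr2 and 3069 in Tgfbr3 against a median of 961 bases over all genes. Among UTRs within 25% of the length of Tgfbr1, 21.8% held the let-7 match, and among those near the length of Tgfbr3 16.1% did. Near the length of Tgfbr2, 29.6% held the miR-21 match and 41.0% the miR-17 match. The libraries did not measure mature miRNAs, and a match describes letters in a window and nothing about binding.

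Read depth was 40740643 to 68530912 counts per wild-type library and 39628101 to 57595675 per ΔAgo2 library. Wild-type replicate 4 stood apart. Its median Spearman correlation with its own group was 0.864, where wild-type replicates 1 to 3 had 0.948 to 0.961, its deviations from the group followed gene GC content (Spearman 0.72 across genes, which are not independent replicates), and its mitochondrial share was 0.54% against 2.39% to 4.51% elsewhere. Members are therefore given with and without it. The ΔAgo2 libraries were more alike, with correlations of 0.985 to 0.986. Ago2 mRNA did not separate the genotypes, at 303.6 ± 165.1 against 351.5 ± 55.75 CPM (SD, n = 4 libraries each; CPM is the count scaled to a common library size). Its log2 fold change was 0.21, or -0.047 without wild-type replicate 4. The loss of Ago2 is thus not visible in its mRNA, and these libraries do not check the labels. The study measured Ago2 protein by western blot in wild-type and ΔAgo2 LLC cells, which RNA levels do not show.

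None of the 9 members passed an adjusted p of 0.05 in edgeR's quasi-likelihood test, in which 0.295% of the 14228 genes tested did (11 higher and 31 lower in ΔAgo2). All 9 members passed the filter on low counts. At an unadjusted p under 0.05, which 7.34% of all genes reached, there were 2 members, Tgfbr3 on the higher and Tgfb3 on the lower side. The same 2 genes were the members whose 4 wild-type and 4 ΔAgo2 libraries did not overlap on the CPM scale, as 6.07% of tested genes did not. In DESeq2, which called 2.23% of the genes it gave an adjusted p, Tgfbr3 passed (adjusted p = 0.0252). In limma with sample quality weights, which called 1.81%, Tgfbr3 (adjusted p = 0.0388) and Tgfb3 (adjusted p = 0.0294) passed. The fold changes of 5 members lay above 0 and those of 4 below, with a median of 0.06 on the log2 scale beside -0.11 for all tested genes. In bulk RNA, fewer cells expressing a gene and less RNA per cell cannot be told apart.

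**Figure D1:**
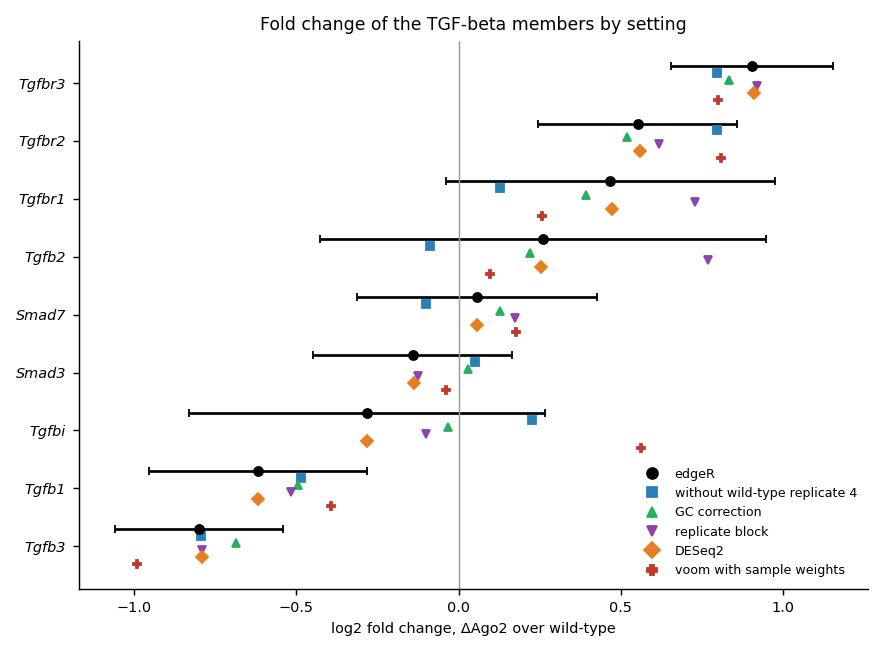
Log2 fold change of each TGF-β member, ΔAgo2 over wild-type, with edgeR's value and its SE (bars) and the values under 5 other settings (points without bars, offset vertically). Tgfbr3 lay between 0.80 and 0.92 and Tgfb3 between -0.99 and -0.69 in the settings drawn, while Smad3, Smad7, Tgfb2 and Tgfbi had values on both sides of 0.

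Tgfbr3, the betaglycan co-receptor, was the member with the largest separation. The wild-type libraries held 245.8, 211.5, 197.5 and 151.7 CPM, and the ΔAgo2 libraries 413.2, 399.0, 358.4 and 338.0 CPM. Every ΔAgo2 library thus lay above every wild-type library, and the ratio of the means was 1.87. The log2 fold change was 0.90 (SE 0.25), with an adjusted p of 0.289 in edgeR and an exact permutation p of 0.0286 (two-sided), the smallest that 4 against 4 libraries allow. Without wild-type replicate 4, the lowest library, the wild-type mean was 218.3 ± 24.84 CPM (SD, n = 3), the log2 fold change 0.80 and edgeR's adjusted p 0.0655. Over 21 alternative settings the fold change stayed between 0.80 and 1.13 and the adjusted p between 0.0252 (DESeq2) and 0.769 (edgeR without ΔAgo2 replicate 1). Tgfbr3 lies at chr5:107106570-107289629 on the minus strand, with 17 exons in the transcript used here. Among overlapping genes, 1 unspliced model on the same strand shared 297 exon bases and had at most 44 counts against at least 4887 for Tgfbr3.

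Tgfbr2, the ligand-binding kinase, held 79.5, 81.0, 46.5 and 118.2 CPM in wild-type cells and 137.5, 131.4, 105.3 and 102.1 CPM in the ΔAgo2 line. The groups overlapped through wild-type replicate 4 alone, which lay above 2 of the ΔAgo2 libraries. On the log2 scale the difference was 0.55 (SE 0.31, edgeR's adjusted p = 0.731, exact permutation p = 0.0857). Without that library the fold change was 0.80 (edgeR's adjusted p = 0.189, within 0.0897 to 0.979 over all alternatives), the ranges no longer met and 3 members were without overlap (Tgfb3, Tgfbr2 and Tgfbr3), against 12.1% of all tested genes. In TPM, the transcript share per unit of length that the authors deposited, Tgfbr2 did not overlap either. It held 19.4 to 38.7 TPM in wild-type and 43.5 to 63.4 TPM in ΔAgo2 cells. In limma on log2(TPM + 1), 9397 of the 14228 tested genes lay above 0, against 5864 in edgeR with TMM. The share of all genes without overlap in TPM was not counted. Tgfbr2 lies at chr9:116084293-116175360 on the minus strand and has 8 exons.

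Tgfbr1, the type I kinase, showed no such pattern. Its wild-type libraries held 27.03, 27.9, 29.0 and 3.85 CPM, and its ΔAgo2 libraries 34.4, 29.3, 25.5 and 32.4 CPM. Wild-type replicate 4 lay far below the other 7 libraries, which spanned 25.5 to 34.4 CPM. The difference on the log2 scale was 0.47 (SE 0.51, edgeR's adjusted p = 0.83) with that library and 0.13 without it. Tgfbr1 lies at chr4:47353222-47414931 on the plus strand and has 9 exons.

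Summed over the 3 receptors, per transcript length, the level was 158.7, 181.9, 137.9 and 84.8 TPM in wild-type and 321.4, 295.8, 242.0 and 243.9 TPM in ΔAgo2 cells. Every ΔAgo2 sum exceeded every wild-type sum, on a scale where 9397 of the 14228 tested genes lay above 0 in limma on log2(TPM + 1). Tgfbr3 made up 69.5% ± 6.32 of this sum in wild-type and 75.1% ± 1.05 in ΔAgo2 cells (SD, n = 4), Tgfbr2 23.0% ± 10.3 and 18.9% ± 0.972, and Tgfbr1 7.45% ± 4.12 and 6.08% ± 0.799. The shares overlapped between genotypes for each receptor. These sums and shares are a description of the 4 libraries per genotype, and no test was made of them.

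**Figure D2:**
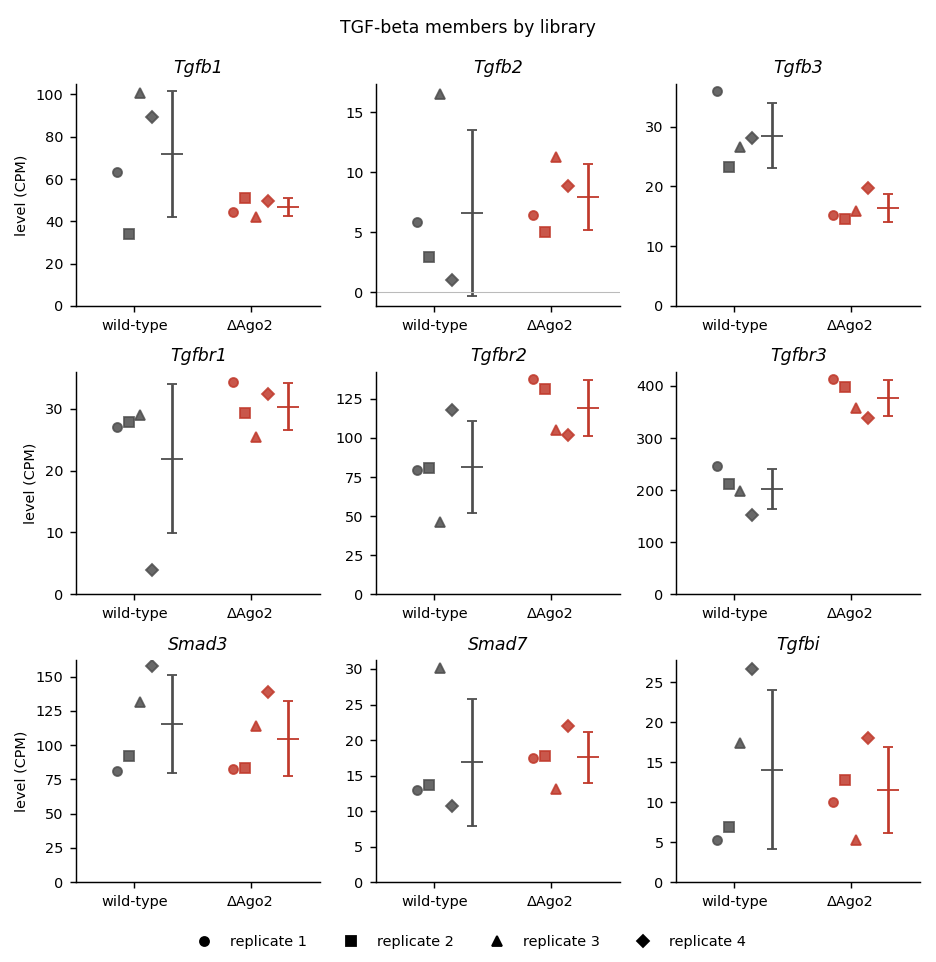
CPM of the 9 members in each library (points, with a symbol for each replicate number) and the mean with SD of 4 libraries (bar) for wild-type and ΔAgo2 cells. The genotypes separate for Tgfb3 and Tgfbr3, Tgfbr2 overlaps through wild-type replicate 4, and the same library is the lowest for Tgfbr1 at 3.85 CPM.

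Among the ligands, Tgfb3 was the one whose groups separated. Its wild-type libraries held 36.0, 23.2, 26.7 and 28.2 CPM and its ΔAgo2 libraries 15.3, 14.6, 15.9 and 19.7 CPM. All 4 ΔAgo2 libraries lay below all 4 wild-type libraries, with a ratio of the means of 0.574. The log2 fold change was -0.80 (SE 0.26, edgeR's adjusted p = 0.442, exact permutation p = 0.0286). It was -0.79 without wild-type replicate 4 (edgeR's adjusted p = 0.144), and adjusted p-values over the 21 alternatives ran from 0.0294 to 0.975. In TPM the genotypes overlapped, since wild-type replicate 4 held 18.5 TPM against 20.6 TPM in ΔAgo2 replicate 4, and without wild-type replicate 4 they again did not. Tgfb3 (chr12:86056745-86079041, minus strand, 7 exons) lies within the span of Ttll5 on the opposite strand, with 0 shared exon bases. The counting strand was not stated, and Ttll5 itself had a log2 fold change of 0.14 (edgeR's adjusted p = 0.907).

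Tgfb1, the ligand with the highest mean level, held 63.1, 33.9, 100.6 and 89.4 CPM in wild-type cells and 44.4, 51.0, 41.96 and 49.4 CPM in the ΔAgo2 line. Wild-type replicate 2 lay below all ΔAgo2 libraries and the other 3 above them. The wild-type spread was wide, at 71.7 ± 29.73 CPM against 46.7 ± 4.236 CPM (SD, n = 4). Tgfb1 had a log2 fold change of -0.62 (SE 0.34, edgeR's adjusted p = 0.728, exact permutation p = 0.171), and it stayed below 0 in all 21 alternative settings, from -0.87 to -0.29. Without wild-type replicate 4 the value was -0.49 (edgeR's adjusted p = 0.546). Tgfb1 lies at chr7:25687002-25705077 on the plus strand and has 7 exons.

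Tgfb2 was the least abundant ligand. Its wild-type libraries ran from 1.06 to 16.5 CPM (5.90, 2.96, 16.5 and 1.06), and its ΔAgo2 libraries, at 6.43, 5.06, 11.3 and 8.87 CPM, fell inside that range. Its log2 fold change of 0.26 had an SE of 0.69 (edgeR's adjusted p = 0.937) and turned to -0.087 without wild-type replicate 4, while it was 1.26 without wild-type replicate 3. Tgfb2 lies at chr1:186622792-186705989 on the minus strand and has 7 exons. As shares of the summed ligand TPM, Tgfb1 took 58.0% ± 9.76 in wild-type and 59.9% ± 4.71 in ΔAgo2 cells, Tgfb3 37.5% ± 10.6 and 31.2% ± 2.37, and Tgfb2 4.45% ± 3.57 and 8.84% ± 3.10 (SD, n = 4). The ranges of all 3 shares overlapped. The summed ligand level was 73.3 ± 22.9 TPM in wild-type and 55.3 ± 4.10 TPM in ΔAgo2 cells.

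Smad3, the receptor-activated transcription factor of the pathway, overlapped almost completely. It held 80.8, 91.8, 131.5 and 157.7 CPM in wild-type cells and 82.5, 83.2, 113.7 and 139.1 CPM in the ΔAgo2 line. The log2 fold change of -0.14 (SE 0.31, edgeR's adjusted p = 0.921) changed sign to 0.029 with a correction for GC content and to 0.052 without wild-type replicate 4. Smad3 lies at chr9:63646767-63757994 on the minus strand and has 9 exons.

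Smad7 is induced by TGF-β and blocks and degrades the type I receptor. It held 12.99, 13.6, 30.1 and 10.8 CPM in wild-type cells and 17.4, 17.8, 13.1 and 22.0 CPM in the ΔAgo2 line. The ΔAgo2 libraries lay within the wild-type range, and the log2 fold change was 0.06 (SE 0.37, edgeR's adjusted p = 0.977), or -0.10 without wild-type replicate 4. Smad7 lies at chr18:75367529-75395935 on the plus strand and has 4 exons.

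Tgfbi encodes a secreted matrix protein and is a widely used readout of TGF-β signaling. It held 5.27, 6.94, 17.4 and 26.6 CPM in wild-type cells and 10.0, 12.8, 5.27 and 18.01 CPM in the ΔAgo2 line. The wild-type libraries were spread from 5.27 to 26.6 CPM and spanned the ΔAgo2 range. The log2 fold change was -0.28 (SE 0.55, edgeR's adjusted p = 0.912) and 0.23 without wild-type replicate 4. Tgfbi lies at chr13:56609523-56639562 on the plus strand and has 17 exons.

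Compared per transcript length, Tgfbr3 was the most abundant member in both genotypes, with 99.3 ± 33.3 TPM in wild-type and 206.8 ± 27.4 TPM in ΔAgo2 cells (SD, n = 4). In wild-type cells it was followed by Smad3 (63.6 TPM), Tgfb1 (43.1), Tgfbr2 (30.03), Tgfb3 (26.3), Smad7 (12.2), Tgfbr1 (11.5), Tgfbi (10.7) and Tgfb2 (3.83), and the ranges of all neighbours in this order overlapped. In ΔAgo2 cells the order of mean TPM was Tgfbr3, Smad3 (67.2 TPM), Tgfbr2 (52.3), Tgfb1 (33.2), Tgfb3 (17.3), Tgfbr1 (16.7), Smad7 (13.9), Tgfbi (11.0) and Tgfb2 (4.85). There, Tgfbr3 stood above Smad3, Tgfbr2 above Tgfb1 and Tgfb1 above Tgfb3 without overlap, and the other neighbours overlapped. Tgfbr2 exceeded Tgfb1 in all 4 ΔAgo2 libraries, whereas Tgfb1 exceeded Tgfbr2 in 3 of the 4 wild-type libraries.

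**Figure D3:**
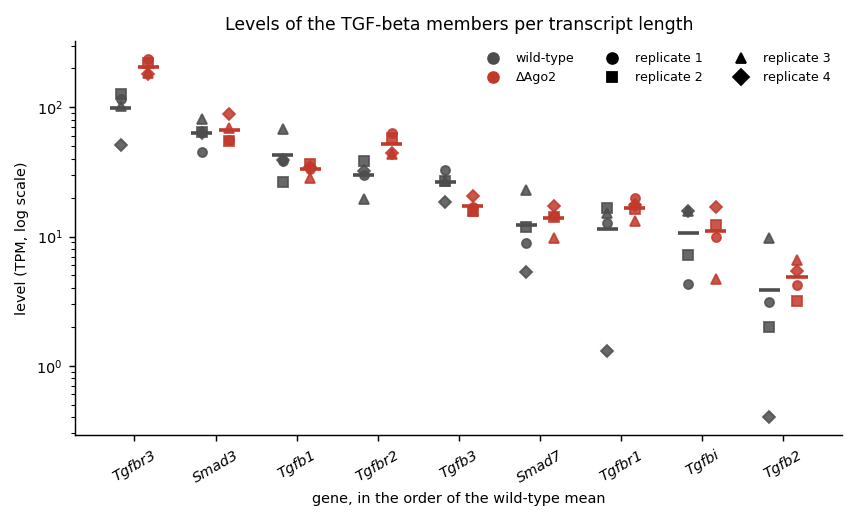
Level of each member per library in TPM (points, log scale) with the mean of 4 libraries (line), in the order of the wild-type mean. Tgfbr3 is highest in both genotypes at 99.3 and 206.8 TPM on average, and Tgfb2 is lowest at 3.83 and 4.85 TPM.

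The surrounding pathway was read from 88 further genes in 6 lists by role, of which 73 passed the filter on low counts. Of these, 1 passed an adjusted p of 0.05 in edgeR (Inhbb, lower in ΔAgo2) beside the 0.295% of all genes. Inhbb passed the filter on low counts through the wild-type libraries alone, so only a lower value in ΔAgo2 was possible for it. Another 4 genes on the higher and 9 on the lower side had an unadjusted p under 0.05, which 7.34% of all tested genes had. Their median on the log2 scale was -0.08, close to -0.11 over all genes, and 32 lay above 0 and 41 below. There were 10 genes without overlap between genotypes, beside 6.07% of all tested genes. Among the 10, Inhbb, Acvrl1 and Acta2 would not have passed the filter on the ΔAgo2 libraries alone. DESeq2 gave a fold change for 27620 genes and an adjusted p for 17926, of which it called 2.23% (133 higher and 266 lower). Of the 84 pathway genes with a fold change it called 8, all lower (Ltbp4, Lrrc32, Inhbb, Bmp2, Acvrl1, Ldlrad4, Fst and Acta2). How many of the 84 had an adjusted p was not counted. Limma with sample weights, at 1.81% of all genes (104 higher and 153 lower), called 4 of the 8 (Ltbp4, Inhbb, Bmp2 and Fst).

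**Figure D4:**
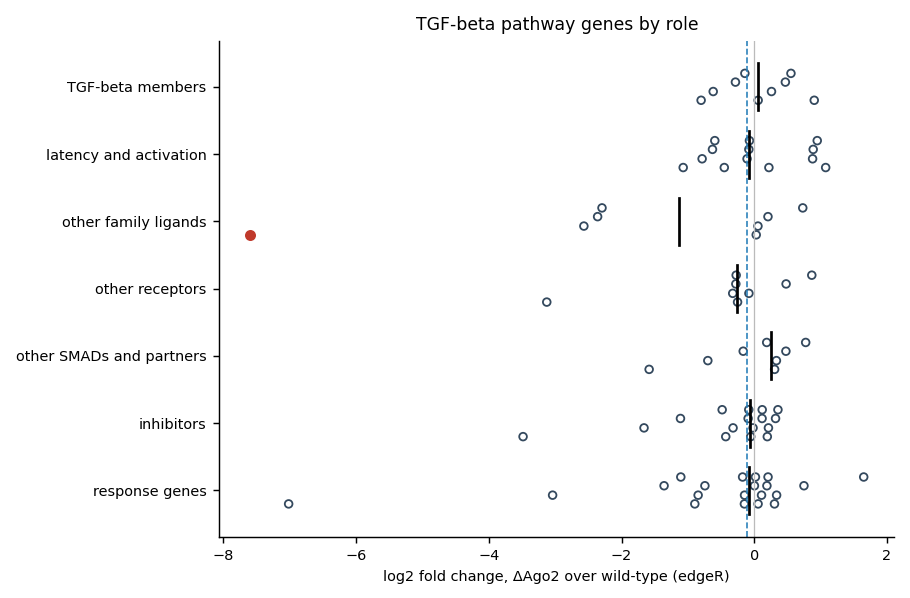
Log2 fold change in edgeR of every tested pathway gene (circles) by role, with the list median (black line) and the median of all tested genes (dashed line, -0.11). The filled circle is Inhbb, the one gene past an adjusted p of 0.05, which entered the test through the wild-type libraries alone. The medians range from -1.13 (other family ligands, with 4 above 0 and 4 below) to 0.25 (other SMADs and partners).

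In the latency and activation list 13 of 15 genes were tested and 0 passed in edgeR (3 on the higher and 1 on the lower side at an unadjusted p under 0.05). The LTBPs, which tether latent ligand to the matrix, went both ways. Ltbp1 held 605.8, 377.8, 610.6 and 313.4 CPM in wild-type against 833.0, 793.4, 1117 and 937.4 CPM in the ΔAgo2 line, without overlap (log2 fold change 0.95, SE 0.30, edgeR's adjusted p = 0.431). Ltbp4 held 212.1, 112.8, 205.6 and 220.6 CPM against 87.2, 95.2, 79.5 and 95.6 CPM, also without overlap but lower in ΔAgo2 cells (-1.07, SE 0.28, edgeR's adjusted p = 0.259). Ltbp2, with means of 5.75 and 10.6 CPM, had a log2 fold change of 0.89 (edgeR's adjusted p = 0.553). Ltbp3, named after its values were seen to complete the family, had one of -0.79, and -0.32 without wild-type replicate 4, its highest library at 1196 CPM. The integrin subunit Itgav was the third gene of this list without overlap.

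Among 12 other family ligands, 8 were tested, with 4 above 0 and 4 below. Bmp5, a bone morphogenetic protein outside the list and named after its values were seen, went higher (log2 fold change 3.14, edgeR's adjusted p = 0.0817). Inhbb, which encodes an activin and inhibin subunit, had 284 counts over the wild-type libraries (3.46, 0.397, 0.684 and 1.24 CPM) and a single count over the 4 ΔAgo2 libraries. It therefore passed the filter on low counts through the wild-type libraries alone. The ratio was 255-fold, with an exact 95% binomial interval of 45.5 to 10100 that covers counting error only. Wild-type replicate 1 held 170 of the 284 counts, and without it the log2 fold change was -6.69 (edgeR's adjusted p = 0.044). The adjusted p in edgeR was 0.0247 and lay between 0.124 and 0.155 when any 1 of the ΔAgo2 libraries was left out, fits that called 1 to 7 genes in all, while the log2 fold change of -7.60 stayed between -9.23 (without ΔAgo2 replicate 4) and -7.22. Over the alternatives it ran from 2.12e-07 (DESeq2) to 0.343 (limma on log2(TPM + 1)). Bmp2, a bone morphogenetic protein, averaged 3.02 ± 1.13 CPM in wild-type cells and 0.617 ± 0.373 CPM in the ΔAgo2 line without overlap (log2 fold change -2.29, SE 0.51, edgeR's adjusted p = 0.153, and 0.000337 in DESeq2 to 0.472 over the alternatives). Gdf15, a stress-induced family member, ran from 0.838 to 32.9 CPM in wild-type cells and from 1.40 to 3.78 CPM in the ΔAgo2 line (-2.57, edgeR's adjusted p = 0.613, and -1.53 without wild-type replicate 3).

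Of 11 other receptors, 8 were tested and 0 passed in edgeR, with 1 of them, Acvrl1, at an unadjusted p under 0.05. Acvrl1, a type I receptor best known from endothelium, held 1.91, 1.12, 0.654 and 6.02 CPM in wild-type cells and 0.505, 0.404, 0.0245 and 0.151 CPM in the ΔAgo2 line, without overlap (-3.13, SE 0.90, edgeR's adjusted p = 0.321). Without wild-type replicate 4 the value was -2.13. The ΔAgo2 libraries held 31, 17, 1 and 8 counts of Acvrl1. They alone would not have passed the filter on low counts, so it entered the test through the wild-type libraries. The activin receptors Acvr2a (0.87, edgeR's adjusted p = 0.752) and Acvr1b (-0.25, edgeR's adjusted p = 0.82) overlapped between genotypes.

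All 8 other SMADs and partners were tested and 0 passed in edgeR, with Zfyve9 at an unadjusted p of 0.0297. Zfyve9 (SARA), which brings Smad2 and Smad3 to the receptor, averaged 33.8 ± 11.8 CPM in wild-type cells and 57.8 ± 8.26 CPM in the ΔAgo2 line, with the highest wild-type library at 47.40 and the lowest ΔAgo2 library at 47.46 CPM (0.77, edgeR's adjusted p = 0.602). Smad5, which serves BMP receptors, did not overlap either (66.8 and 92.9 CPM, log2 fold change 0.48, edgeR's adjusted p = 0.738), and wild-type replicate 4 was far below the other libraries at 38.4 CPM. Smad9 had a log2 fold change of -1.58 (edgeR's adjusted p = 0.678), and -0.85 without wild-type replicate 3. Its ΔAgo2 libraries held 31, 23, 2 and 14 counts and alone would not have passed the filter on low counts. Smad2 and Smad4, named after their values were seen as the partners of Smad3, had 0.33 and -0.17. For Smad2 the value was 0.025 without wild-type replicate 4, and for Smad4 it turned to 0.093 on the log2(TPM + 1) scale.

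Among 19 inhibitors, 16 were tested and 0 passed in edgeR, with 2 on the lower side at an unadjusted p under 0.05. Fst (follistatin), which binds activins, held 17.6, 1.69, 7.96 and 0.962 CPM in wild-type cells and 0.586, 0.570, 1.13 and 0.246 CPM in the ΔAgo2 line (-3.48, SE 0.91, edgeR's adjusted p = 0.267, and 0.001 in DESeq2 to 0.606 over the alternatives). The overlap came from wild-type replicate 4 and ΔAgo2 replicate 3, and the value was -2.49 without wild-type replicate 1. Ldlrad4, a membrane inhibitor of Smad2 and Smad3 activation, averaged 3.39 ± 1.57 and 1.07 ± 0.539 CPM without overlap (-1.66, edgeR's adjusted p = 0.419). Chrd, the BMP antagonist chordin, had a log2 fold change of -1.11 (edgeR's adjusted p = 0.74).

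The 20 tested of 23 response genes did not share a direction, with 10 above and 10 below 0, and 0 passed in edgeR. The median was -0.07, and 3 genes on the lower side had an unadjusted p under 0.05. Acta2, smooth muscle actin, was uneven among the wild-type libraries at 1.28, 2.32, 87.7 and 74.4 CPM and stayed between 0.0490 and 0.492 CPM in the ΔAgo2 line. Without wild-type replicate 3 the log2 fold change was -6.33. Its ΔAgo2 libraries held 18, 18, 2 and 26 counts and alone would not have passed the filter on low counts. Acta2 thus entered the test through the wild-type libraries. The groups did not overlap (-7.01, SE 1.45, edgeR's adjusted p = 0.107, and 1.99e-05 in DESeq2 to 0.455 over the alternatives). Id2 (-1.11, edgeR's adjusted p = 0.592) and Cdkn1a (-0.74, edgeR's adjusted p = 0.657), an inhibitor of differentiation and a cell cycle inhibitor, overlapped between genotypes. Id1 and Id3 were named after their values were seen, as common readouts. Id1 had -0.85 and Id3 -1.36, the latter -0.37 without wild-type replicate 4, which held 363.7 CPM of Id3, and 0.29 in limma with sample weights.

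**Figure D5:**
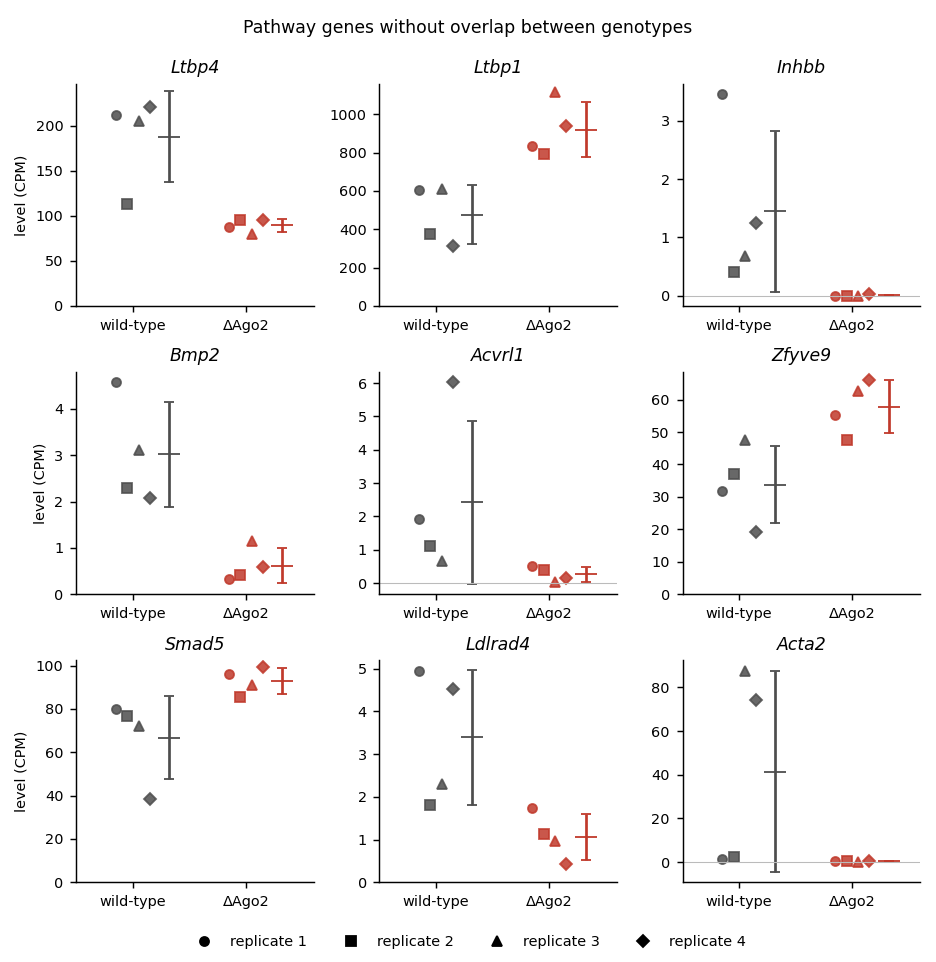
CPM in each library (points) with the mean and SD of 4 libraries (bar) for 9 of the 10 pathway genes whose genotypes did not overlap, those also among the genes named by rule. Ltbp1, Zfyve9 and Smad5 are higher in every ΔAgo2 library and Ltbp4, Inhbb, Bmp2, Acvrl1, Ldlrad4 and Acta2 lower, and Acta2 is high in wild-type replicates 3 and 4 only. Inhbb, Acvrl1 and Acta2 passed the filter on low counts through the wild-type libraries.

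The genes whose log2 CPM followed each member most closely over the 8 libraries are given as a description, since the libraries share the genotype split, depth and base composition. For Tgfbr3 they were Ifi209 (Pearson r = 0.9951) and C78283 (r = 0.9844), and both stayed above 0.97 without wild-type replicate 4. For Tgfb3 they were Rusc1 (r = 0.9899) and Inhbb (r = 0.9769). Inhbb had 1 count over all ΔAgo2 libraries, so its log2 CPM there lay at the floor. For Tgfbr1, Zfp597 had an r of 0.9969, which was 0.8023 without wild-type replicate 4. Hist1h1d and Pebp4 were nearest to Tgfbr2, Bsdc1 and Ptprs to Tgfb1, Fbxl5 and Atf6 to Tgfb2, Aldh18a1 and Wars to Smad3, Aplp2 and Kctd3 to Smad7, and Ggcx and Cers2 to Tgfbi, with r from 0.9362 to 0.9973.

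Markers of cell types were read to check the label of a carcinoma line grown alone. Of 7 epithelial carcinoma markers, Krt8 and Krt18 carried the sum of 114 to 1260 CPM in wild-type cells and 313 to 510 CPM in the ΔAgo2 line, whereas Epcam was at or under 3 counts in every library and Cdh1 at most 0.183 CPM. The 6 T cell markers were all at or under 3 counts per library, and the 6 endothelial markers summed to 0.404 to 1.08 CPM in wild-type cells and 0.435 to 1.26 CPM in the ΔAgo2 line. The 7 macrophage markers summed to 19.8 to 58.1 and 17.2 to 31.4 CPM, nearly all from Cd68 and Cd14, with the defining Ptprc, Adgre1 and Itgam at or under 3 counts. The 7 fibroblast markers summed to 13.3 to 74.3 and 43.8 to 86.6 CPM, mostly Pdgfra, with Thy1 and Postn at or under 3 counts. Their part in the values of the members was not tested.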

How the data were processed

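Cultured LLC cells were profiled by paired-end stranded mRNA sequencing in 4 wild-type and 4 ΔAgo2 libraries, all of 1 batch per the labels. The authors aligned reads to ribosomal RNA and then to mm10 (STAR in the submitters' processing notes), counted them per gene with featureCounts and deposited raw counts. The annotation release and strand setting are not given in the sources used here. The deposited TPM values were the authors' own conversion, not described further.

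Counts were tested with edgeR 4.0.16 (quasi-likelihood, filterByExpr, TMM factors, genotype only, two-sided, Benjamini-Hochberg over 14228 genes). A gene that did not pass was not shown to be unchanged. CPM were scaled by TMM, and TPM served levels between genes. Single genes had exact permutation tests on CPM. A floor of 3 counts marked genes as not detected. The alternatives were DESeq2 1.42.0, limma 3.58.1 (voom, sample weights, log2(TPM + 1) and log2(TPM + 0.1)), other size factors, filters, a robust fit, GC correction, a replicate block and each library left out. R 4.3.3 and Python 3.11.15 were used. Totals of 39628101 to 68530912 counts per library limit precision mainly for genes of a few CPM.

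Members and lists were chosen with earlier results of these data known. Named genes were the 9 members, pathway genes past an adjusted p of 0.05, the 3 smallest p of each list and the 2 genes most correlated with each member, of which 1 is not reported here. Symbols were given for 55394 of 55487 identifiers. ΔAgo2 replicates 1 and 2 were closer (chi-square of 22.9 per gene) than other ΔAgo2 pairs (89.7 to 126) but differed beyond counting noise and were kept as separate libraries.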

Additional observations from a re-analysis of the deposited data

Results flagged for a closer look

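Dixon's criterion at 95%, applied to the CPM of 68 groups of 4 libraries, marked 4, where chance marks about 1 in 20. In the wild-type group, Tgfbr1 had a ratio of gap to range of 0.965, because replicate 4 (3.85 CPM) lay far below the other wild-type libraries (27.03 to 29.0 CPM). Smad5 had a ratio of 0.856 in the wild-type group, again through replicate 4 (38.4 CPM against 72.1 to 80.1 CPM). Ltbp4 had a ratio of 0.896 in the wild-type group, through replicate 2 (112.8 CPM against 205.6 to 220.6 CPM). Inhbb in the ΔAgo2 group had a ratio of 1.0, which came from a single count in replicate 4 and 0 counts in the other libraries.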

How the results depend on the processing

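The number of genes called in all, 42 in edgeR, was 399 in DESeq2, 257 in limma with sample weights, 143 with no filter on low counts, 6 with a CPM of at least 1 in 4 libraries, 71 with GC correction, 15 in limma on log2(TPM + 1) and between 1 (without ΔAgo2 replicate 1) and 113 (without wild-type replicate 4) when a library was left out. It was 12 without wild-type replicate 1, 78 without wild-type replicate 2 and 7 without each of the other ΔAgo2 replicates. Members called, 0 in edgeR, were 1 in DESeq2 and 2 in limma with sample weights, and 0 in every leave-one-out fit. Pathway genes called, 1 in edgeR, were 8 in DESeq2, 4 in limma with sample weights, 3 with no filter, 0 with a CPM of at least 1 in 4 libraries (Inhbb was then not tested), 0 on both TPM scales and 0 to 1 when a library was left out, with 0 without each ΔAgo2 replicate.

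A replicate block in edgeR left 18 genes called (65 with GC correction and the block), and 0 members and 1 pathway gene, as in the fit without it. The labels share replicate numbers only. Deviations of same-numbered libraries had correlations of -0.14, -0.049, 0.38 and 0.028, and those of different-numbered libraries ran from -0.36 to 0.46. These values cannot decide whether the numbers mark shared preparation, and the main fit did not use the numbers.

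Tgfb1, Tgfb3, Tgfbr1, Tgfbr2 and Tgfbr3 kept their direction in all 21 alternatives. Smad3 (-0.14) changed to 0.029 with GC correction, 0.019 with GC correction and the block, and 0.082 and 0.083 on the log2(TPM + 1) and log2(TPM + 0.1) scales. Tgfbi (-0.28) changed to 0.56 with sample weights, 0.076 with GC correction and the block, and 0.076 and 0.089 on the TPM scales. Smad4 changed to 0.093 and 0.096 on the TPM scales and Id3 to 0.29 with sample weights. Leaving out a library gave ranges of -0.087 to 1.26 for Tgfb2, -0.30 to 0.052 for Smad3, -0.10 to 0.50 for Smad7, -0.58 to 0.23 for Tgfbi, -0.34 to 0.016 for Smad4 and -0.047 to 0.60 for Ago2. The median log2 fold change of all genes was -0.11 with TMM, -0.01 with library size alone and 0.15 on log2(TPM + 1). The cause of these changes was not tested. Depth limits the genes with few counts, such as Inhbb, Acvrl1, Smad9 and Acta2 in ΔAgo2 cells, and no value here measures protein or signaling activity.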
